A study of Mus musculus with 19 samples.

Results

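Ly6c2 Chil3 inflammatory monocytes were followed through the injury site of mice with a burn and an Achilles tendon cut, a model in which bone forms in soft tissue (heterotopic ossification). The cells were picked from single cell RNA sequencing by measured counts of unique molecular identifiers (UMIs, each standing for 1 captured transcript). A cell was kept if it showed 500 genes or more and if mitochondrial transcripts made up no more than 25% of its UMIs, which held for 39541 barcodes. Of these, 17775 held Csf1r, the receptor of the monocyte and macrophage growth factor, and 2160 of these held at least 2 UMIs of Ly6c2. The condition that the UMIs of Ly6c2, Chil3 and Plac8 together exceeded those of the complement genes C1qa, C1qb and C1qc left 1656 cells. Cells with more Csf3r and Cxcr2 than Csf1r UMIs were then removed, then those with Cd209a, then those with Pdgfra, which left 1575, 1439 and finally 1380 monocytes. They came from 18 of 19 libraries.

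The libraries were 4 of day 0, 3 of day 3, 4 of day 7, 4 of day 21 and 4 with the CD47-activating peptide p7N3. The injury was a dorsal burn over 30% of the body surface with Achilles tenotomy. Day 0 was described as tissue taken prior to injury, although its labels list the burn. The p7N3 animals had 10 mg per kg intraperitoneally each day from 3 days before to 3 days after injury, and their tissue was taken at day 7. For the fourth p7N3 library the labels give no day of harvest. The day 7 libraries served as the group without peptide, and their labels name no vehicle. The labels give C57 mice and LysmCre/Tgfb1fx/fx mice, in which Cre acts in myeloid cells, for the whole series but assign neither to any library, so the genotype of each library was taken from no source here. Wild-type mice were young adult male C57BL/6J animals according to the methods. The replicate libraries of a time point were described as made to assess variation between mice, but no source assigns a library to an animal, so the p-values measure the spread between libraries. The monocytes numbered 15 at day 0, 824 at day 3, 189 at day 7, 27 at day 21 and 325 with p7N3.

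Monocytes with high Ly6C leave the bone marrow by the chemokine receptor CCR2, enter damaged tissue from the blood within days and there become macrophages or antigen-presenting cells, or are cleared. Ly6c2 codes for the surface protein Ly6C, Chil3 for a secreted chitinase-like protein, and Plac8 for a cytosolic protein abundant in blood monocytes and granulocytes. Major histocompatibility complex (MHC) class II molecules show peptides to T helper cells, and their invariant chain Cd74 guides them through the cell. Interferons raise genes such as Isg15, and factors of the NF-kB family drive Tnf, Cxcl1 and their own inhibitor Nfkbia.

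The label was described by 5 markers, of which Ccr2 and Ifitm6 are not in the rule. The study lists both among the top genes of its day 3 clusters, so they give no independent check. Ccr2 stood at 988 CPM (UMIs of the gene scaled to a sum of 1e6 UMIs over all genes) in the summed monocytes and had a UMI in 94.6% of them, against 219 CPM and 43.1% in the 10213 cells called C1q macrophages, which met the same conditions except that no Ly6c2 minimum applied and the C1q UMIs were the larger sum. Ifitm6, an interferon-induced membrane protein gene of monocytes, stood at 701 CPM in monocytes and 18.5 CPM in C1q macrophages. With every cell thinned to 1500 UMIs, 52.0% of monocytes and 2.43% of C1q macrophages kept an Ifitm6 UMI. Median depth was 7324 UMIs per monocyte and 6892 per C1q macrophage. The rule genes were at 1181 CPM for Ly6c2, 1079 for Chil3 and 3040 for Plac8 in the monocytes, and at 30.7, 77.4 and 99.4 CPM in the C1q macrophages. These levels describe the choice of cells, which set the monocytes and C1q macrophages apart, and were not tested. Other cells, such as those with Cd209a, are not set beside the monocytes here. The Ly6c2 gene has a near-identical neighbour, Ly6c1, so that reads could be split between them.

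The lower edge of the rule cut through a continuum. At the edge, 280 monocytes held exactly 2 Ly6c2 UMIs, with 1067 CPM of Ccr2 and 431 CPM of Ifitm6. Another 450 cells failed only by holding 1 Ly6c2 UMI, with 768 CPM of Ccr2 and 348 CPM of Ifitm6. At the other edge, 46 monocytes exceeded their C1q sum by 1 or 2 UMIs and 28 cells fell short by 0 to 2, with 709 and 439 CPM of Ccr2. In all, 328 monocytes (23.8%) held no C1q UMI. No monocyte barcode occurred in more than 1 library, whereas 975 of the barcodes among all kept cells did.

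Monocytes were most frequent at day 3. Their share of kept cells at day 3 was 20.1%, 10.4% and 12.1% in the 3 libraries. The day 0 libraries held 1.2%, 0.350%, 0% and 0.114%, and the library without a monocyte (1111 cells) had an upper limit of 0.270% when set at 3 counts of the total and of 0.331% by the exact interval. All day 3 values lay above all day 0 values, and the means were 14.2% ± 5.18 (SD, n = 3) and 0.415% ± 0.541 (SD, n = 4). The difference of 13.8 percentage points had an exact 2-sided permutation p of 0.0571, the smallest that 3 against 4 libraries allow, and 0.0762 after adjustment over the 4 comparisons made. Binomial intervals for single shares were exact (Clopper-Pearson, 95%), and intervals and limits cover counting error only.

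At day 7 the share was 1.53%, 1.70%, 0.736% and 1.76%, or 1.43% ± 0.474 (SD, n = 4). Every library lay under every day 3 library, again with an exact permutation p of 0.0571 (adjusted 0.0762). The day 21 libraries held 0.520%, 0.331%, 0.847% and 0.409%, overlapping with day 7, and the mean was 0.527% ± 0.227 (SD, n = 4). The exact permutation p of day 21 against day 7 was 0.0571 (adjusted 0.0762), with 0.0286 the smallest possible. Among cells with Ptprc, the leukocyte surface gene, these shares were 3.11% at day 7 and 3.07% at day 21, a difference of -0.034 points. At day 3 the share among these cells was 16.4%, above day 7 without overlap. With p7N3 it was 5.38%, or 1.73 times that of day 7, with overlap. The step from day 7 to day 21 thus rests on the denominator. From shares alone, fewer monocytes and more of other cells cannot be told apart.

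With p7N3 the share was 3.59%, 2.42%, 3.90% and 1.58%, and the mean was 2.87% ± 1.07 (SD, n = 4), 2.00 times that of day 7. Libraries 1 to 3 lay above all day 7 libraries and the fourth lay between them. The exact permutation p was 0.0857 (adjusted 0.0857). Within the libraries numbered 1 to 3, which were deposited before the fourth, the groups did not overlap and the exact p was 0.1, the smallest that 3 against 3 allow. Cells differed in depth, with a median of 8423 to 8896 UMIs in the day 3 monocytes, 3026 to 5014 at day 7 and 3510 to 5029 with p7N3. When the rule was applied to cells thinned to 1500 UMIs, the mean shares were 0.156%, 2.55%, 0.467%, 0.133% and 0.836% in the order day 0, day 3, day 7, day 21 and p7N3, the same order as without thinning except that day 0 then lay above day 21. Thinned, day 21 lay below day 7 without overlap (exact permutation p of 0.0286, the smallest possible, adjusted 0.0762).

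**Figure D1:**
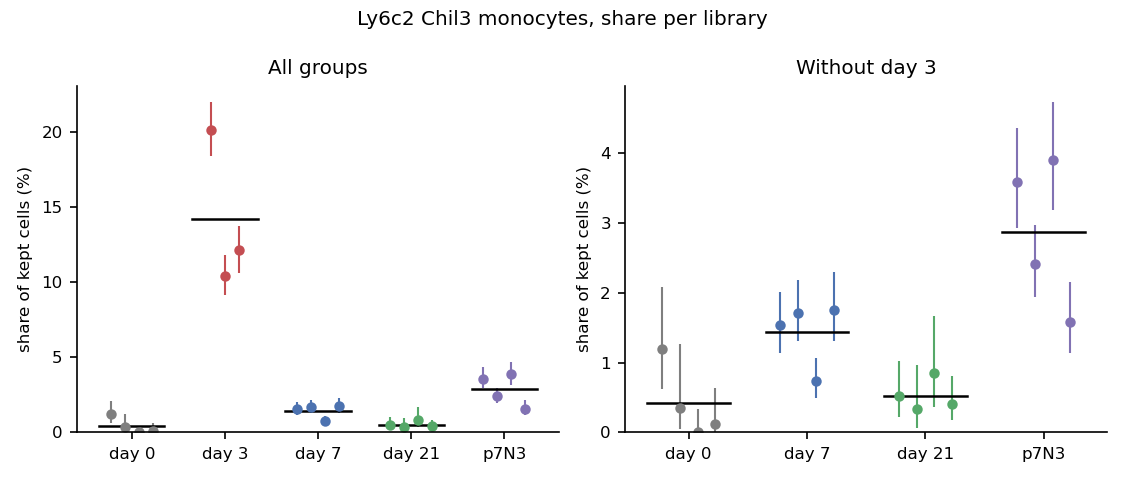
Share of Ly6c2 Chil3 monocytes among kept cells (%) in each library, for all groups (left) and without day 3 (right); points are libraries with exact 95% binomial intervals and horizontal lines are group means. The 3 day 3 libraries lie between 10.4% and 20.1%, above every other library.

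From day 3 to day 7 the monocytes had higher levels of 5 of 6 tested MHC class II genes and 7 of 15 tested interferon-stimulated genes. Lower levels were found for 4 of 8 tested granulocyte markers and 3 of 16 tested cytokine and chemokine genes, while 1 of the 16 rose. UMIs were summed over the monocytes of each library and tested by edgeR's quasi-likelihood test with Benjamini-Hochberg adjustment, for libraries with at least 10 monocytes. Of 3404 genes tested, 243 (7.14%) had an adjusted p under 0.05, 107 (3.14%) higher and 136 (4%) lower at day 7. The higher ones include Ly6c2 and Plac8, whose values chose the cells, and these are not read. At an unadjusted p under 0.05 there were 851 (25%). The median log2 fold change of all genes tested was 0.02, and 1626 of the 3404 were below 0. Day 0 had 1 library with 10 or more monocytes and day 21 had none, so these days were not tested. The summed monocytes held 3506215, 2107135 and 1850462 UMIs at day 3 but only 254779, 287254, 84000 and 242526 at day 7, so that a low gene at day 7 rests on a few UMIs.

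Of the 10 MHC class II genes listed, 6 were abundant enough to be tested, 5 rose and none fell, with a median log2 fold change of 2.00. H2-Ab1, the beta chain of the I-A molecule (chr17:34257689-34269419, build GRCm38), had 5436, 7011, 5036 and 1765 CPM in the 4 day 7 libraries and 1043, 1226 and 1117 CPM at day 3. The groups did not overlap, and the fourth day 7 library was the lowest of its group. The log2 fold change was 2.16 (SE 0.35, adjusted p = 0.0058, edgeR). Cd74, the invariant chain, stood at 14836, 19979, 15298 and 5204 CPM at day 7 and at 3727, 4055 and 3907 CPM at day 3, a log2 change of 1.90 (SE 0.34, adjusted p = 0.0083, edgeR). H2-Eb1 and H2-Aa, chains of the I-E and I-A molecules, rose by 2.38 (SE 0.41) and 2.09 (SE 0.35) on the log2 scale. H2-DMa, a chain of the molecule that loads peptides, rose by 1.24. H2-DMb1 did not pass the test (log2 0.99, adjusted p = 0.053). H2-Ab1, H2-Aa, H2-Eb1 and Cd74 were called in all 7 fits that left out 1 library.

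H2-Ab1 had a UMI in 138 of 189 monocytes at day 7 and in 708 of 824, which were deeper, at day 3. Thinned to 1500 UMIs, it was found in 60%, 72.1%, 59.3% and 45.1% of cells in the day 7 libraries and in 41.9%, 49.8% and 46.3% at day 3, so that the fourth day 7 library lay inside the day 3 range. In C1q macrophages, which also express class II genes, the thinned share was 50.7% over all libraries. The 3 richest cells of a day 7 library held 17.7% to 47.7% of its H2-Ab1 UMIs. Without those 3 cells the day 7 levels were 4330, 6378, 3240 and 978 CPM, and the day 3 levels 934, 1011 and 902 CPM. Cd74 in the fourth day 7 library then stood at 3218 CPM, below the day 3 range of 3257 to 3493 CPM, although 3 cells are a larger part of that library's 51 than of the 205 to 396 of a day 3 library, which lowers the trimmed day 7 levels more. Thinned to 1500 UMIs, 10 or more class II UMIs were found in 50%, 70.5%, 63.0% and 27.5% of cells in the day 7 libraries, against 23.2%, 26.9% and 22.0% at day 3. The day 7 libraries all lay above day 3, with means of 52.7% ± 18.9 (SD, n = 4) and 24.0% ± 2.57 (SD, n = 3). Markers of conventional dendritic cells, which also carry class II, summed to 184, 181, 107 and 53.6 CPM at day 7 and to 71, 106 and 76.2 CPM at day 3, with Ifi205 the most abundant of the list. In a choice made after seeing the data, cells with a UMI of Flt3, Zbtb46, Clec9a, Xcr1, Ccr7 or Clec10a were left out. Ifi205 was not among these genes, and the cells left are called cells with no dendritic cell marker below. H2-Ab1 still rose in them, as it did under each of the 21 alternatives, with log2 changes from 1.86 to 2.74. Whether dendritic cells remained among them was not tested.

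**Figure D2:**
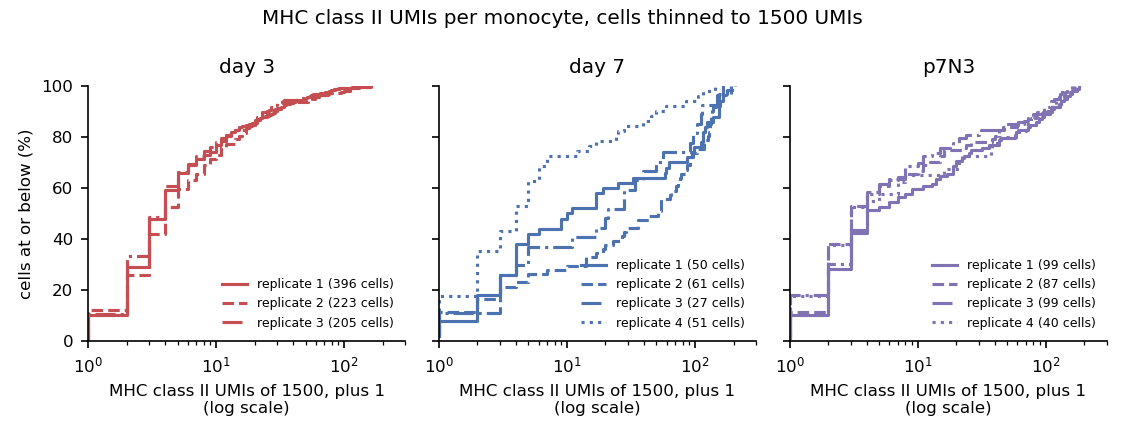
Cumulative share of monocytes (%) against the number of MHC class II UMIs per cell (log scale, 1 added) after thinning each cell to 1500 UMIs, with 1 line per library. Day 3 lines nearly coincide (22.0% to 26.9% of cells with 10 or more), while day 7 lines spread from 27.5% to 70.5%.

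MHC class I genes show peptides to cytotoxic T cells. Of 9 tested, H2-T23, B2m and H2-K1 rose and none fell, with a median of 0.46. B2m, the common light chain, had 4255 to 5584 CPM at day 7 and 2975 to 3327 CPM at day 3 (log2 0.67, SE 0.10).

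Of 15 interferon-stimulated genes tested, 7 rose, none fell and the median was 0.91. The summed level of the list nevertheless overlapped between the days, at 3815, 7345, 4726 and 2763 CPM at day 7 and 3536, 3416 and 3056 CPM at day 3, and the fourth day 7 library was the lowest of all 7. Thinned to 1500 UMIs, 10 or more UMIs of the list were found in 4%, 34.4%, 18.5% and 9.8% of cells at day 7 and in 11.1%, 7.62% and 6.83% at day 3, again with overlap. Isg15, a ubiquitin-like protein, had 306, 460, 429 and 161 CPM at day 7 and 149, 152 and 122 CPM at day 3 (log2 1.3, SE 0.27, adjusted p = 0.017, edgeR), and the lowest day 7 library stood close to day 3. Other members that rose were Slfn5 (1.71), Ifi47 (1.64), Oasl2 (0.97), Ifi204 (0.72) and Cxcl10. Isg15 lost its call without any one of the day 3 libraries (adjusted p up to 0.091 over all its alternatives).

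Ccl5 and Cxcl10 were carried by few cells. Ccl5, a chemokine for T cells and monocytes, had 314, 389.9, 71.4 and 74.2 CPM at day 7 and 5.99, 9.49 and 9.19 CPM at day 3 (log2 4.99, SE 0.52, adjusted p = 0.00059, edgeR). Of the 189 day 7 monocytes, 20 held any Ccl5 UMI, and the 3 richest cells of each library held 91.1% to 100% of the UMIs. Without those 3 cells the day 7 libraries had 4.16, 36.6, 0 and 0 CPM, and the day 3 libraries 4.89, 6.78 and 4.40 CPM, so that the groups overlapped, with the same limit of the trimming as for H2-Ab1. Thinned to 1500 UMIs, a Ccl5 UMI was found in 6%, 11.5%, 11.1% and 3.92% of cells at day 7 and in 0.253%, 1.79% and 0.976% at day 3, without overlap. T and NK cell markers summed to 3.92, 73.1, 0 and 70.1 CPM in the same day 7 libraries and to 5.42, 9.49 and 7.03 CPM at day 3, and their part in the Ccl5 level was not tested. Cxcl10, an interferon-induced chemokine, had 47.1, 216, 59.5 and 28.9 CPM at day 7 and 12.5, 14.2 and 14.6 CPM at day 3 (log2 2.89, SE 0.54, adjusted p = 0.011, edgeR). It was found in 17 of 189 cells, and the 3 richest cells held 72.6% to 100% of its UMIs at day 7. At day 7 the summed levels of these chemokines thus came mostly from a few cells per library.

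**Figure D3:**
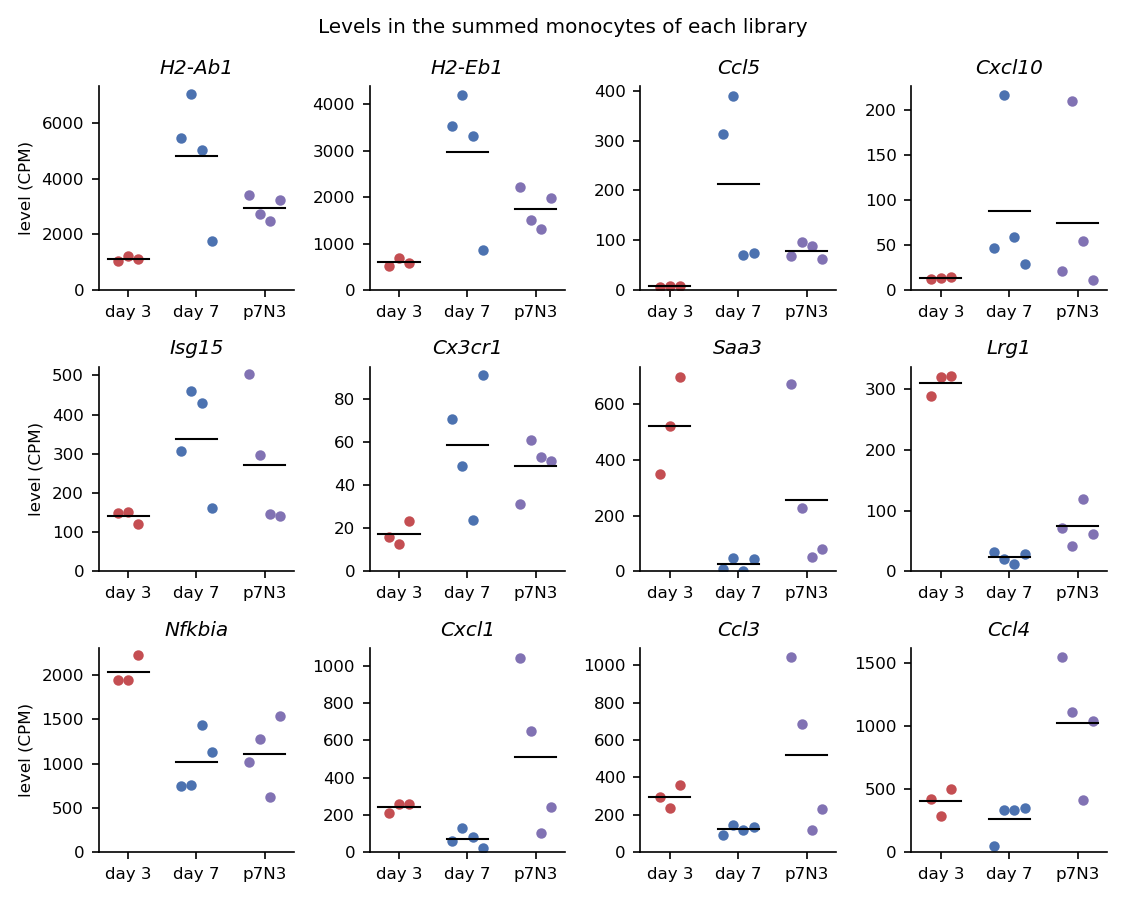
Levels of 12 genes in the summed monocytes of each library (CPM, linear axes from 0), with points for libraries and lines for group means, at day 3, day 7 and with p7N3. H2-Ab1 lies between 1765 and 7011 CPM at day 7 and between 1043 and 1226 CPM at day 3, and Lrg1 falls from 289 to 321 CPM at day 3 to 11.9 to 31.4 CPM at day 7.

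Promoter sequences are shown for genes of the lists that changed, because each group has a known control element. They come from RefSeq, GRCm38.p6, as windows of 300 bases from 250 before to 50 after the start of transcription, of which 170 are printed with the matched letters in capitals, 5′ to 3′ on the gene's strand. The class II Y box was searched as CTGATTGG on both strands. It was present in 4.10% of 32851 promoters, and in 2 of the 3 risen class II genes with an entry, at 62 bases before the start in H2-Eb1 and 51 in H2-Aa. H2-Ab1 and Cd74 had no entry.
H2-Eb1, chr17:34305717-34305886, plus strand: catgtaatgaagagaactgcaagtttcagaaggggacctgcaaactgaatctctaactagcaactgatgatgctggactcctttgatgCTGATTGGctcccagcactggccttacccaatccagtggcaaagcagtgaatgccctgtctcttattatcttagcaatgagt
H2-Aa, chr17:34287804-34287973, minus strand: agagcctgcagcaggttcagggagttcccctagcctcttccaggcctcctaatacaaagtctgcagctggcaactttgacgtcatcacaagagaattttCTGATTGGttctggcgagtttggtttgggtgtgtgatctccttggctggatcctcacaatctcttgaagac

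The interferon response element was searched on both strands as GAAA, any 2 bases and GAAA again. It was present in 3.44% of all promoters and in 3 of the 5 risen interferon-stimulated genes with an entry (Cxcl10, Slfn5 and Isg15). In Isg15 there were 3 overlapping matches that began 78, 72 and 66 bases before the start. Ifi204 had no entry.
Isg15, chr4:156200799-156200968, minus strand: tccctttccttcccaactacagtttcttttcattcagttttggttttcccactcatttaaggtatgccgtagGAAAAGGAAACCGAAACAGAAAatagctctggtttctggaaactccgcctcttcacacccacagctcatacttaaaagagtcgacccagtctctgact
An NF-kB site, searched on both strands as GGGA, any base and TTTCC, was present in 0.411% of promoters. It was found in Nfkbia, 1 of the 3 fallen genes of the NF-kB list, 29 bases before the start on the opposite strand, and in Cxcl1, 1 of the 3 fallen cytokine and chemokine genes, 71 bases before the start. A match describes the letters and is not a site shown to be used.
Nfkbia, chr12:55492628-55492797, minus strand: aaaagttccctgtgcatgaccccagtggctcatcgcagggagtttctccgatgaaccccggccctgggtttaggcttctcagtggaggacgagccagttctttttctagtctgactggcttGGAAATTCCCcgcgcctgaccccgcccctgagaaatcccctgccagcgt

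Among the genes with the largest falls at day 7 were Lrg1, Saa3, Hmga1 and Cxcl14. Lrg1, a secreted leucine-rich glycoprotein, had 31.4, 20.9, 11.9 and 28.9 CPM at day 7 and 289, 319.9 and 321 CPM at day 3. It fell by 3.54 on the log2 scale (SE 0.20, adjusted p = 5.86e-06, edgeR), with no overlap. Lrg1 was found in 528 of 824 monocytes at day 3 and 18 of 189 at day 7, and after thinning in 26.8% to 27.5% of the cells of a day 3 library and 0% to 5.88% of those of a day 7 library. Saa3, serum amyloid A3, had 7.85, 48.7, 0 and 45.4 CPM at day 7 and 351, 521 and 699 CPM at day 3 (log2 -4.02, SE 0.43, adjusted p = 0.00059, edgeR). Hmga1, a chromatin protein, and Cxcl14, a chemokine, fell by 2.38 and 2.10.

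Of 8 granulocyte markers tested in the same cells, 4 fell (Retnlg, Lcn2, S100a8 and Il1r2), none rose and the median was -1.38. Of the 7 fits without 1 library, all called Retnlg, but only 4 called Lcn2 and 3 called S100a8. Retnlg, a secreted neutrophil protein, had 1163 UMIs at day 3 and 1 at day 7, a CPM ratio of 135 (95% counting interval 24.2 to 5350). Wfdc21, which lies outside the list, had 1019 and 5 UMIs. S100a8, a calcium-binding alarmin that neutrophils hold in bulk, had at least 1 UMI in each of the 824 day 3 monocytes and a level of 1136 to 2412 CPM, against 108 to 833 CPM at day 7. At day 7 it was found in 51 of 189 cells, and the 3 richest cells of a library held 76.4% to 94.3% of its UMIs. The 16 granulocyte markers together summed to 2547, 2293 and 4735 CPM at day 3 and to 542, 389.9, 2048 and 948 CPM at day 7, and S100a8 made up 48.2% of their UMIs in the monocytes. Over all libraries, S100a8 was also found in 28.7% of C1q macrophages thinned to 1500 UMIs. In the C1q macrophages Retnlg changed by -5.19 and S100a8 by -2.74 over the same days. Whether these transcripts came from granulocyte RNA free in the suspension was not tested.

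Of 16 inflammatory cytokine and chemokine genes tested, Tnf, Cxcl1 and Ccl3 fell, Ccl5 rose, and the median was -0.58 with 13 of 16 below 0. Cxcl1, which draws neutrophils, had 58.9, 129, 83.3 and 24.7 CPM at day 7 and 212, 261 and 257 CPM at day 3 (log2 -1.64, SE 0.32, adjusted p = 0.013, edgeR). Ccl3, a chemokine for monocytes, had 94.2, 146, 119 and 136 CPM at day 7 and 294, 236 and 362 CPM at day 3, with no overlap (log2 -1.18, SE 0.20, adjusted p = 0.0068, edgeR). Tnf had 35.3, 48.7, 262 and 74.2 CPM at day 7 and 209, 288 and 295 CPM at day 3 (log2 -1.70, SE 0.41, adjusted p = 0.034, edgeR). The third day 7 library, with 27 cells, overlapped with day 3, and 5 of the 7 fits without 1 library did not call Tnf (adjusted p up to 0.15 over all its alternatives). Il1b, at 1205 to 2631 CPM at day 7 and 3074 to 3596 CPM at day 3, missed the threshold (log2 -0.73, adjusted p = 0.060, edgeR), as did Ccl4 (log2 -0.57, adjusted p = 0.44). In the list of NF-kB feedback and prostaglandin genes, the inhibitors Tnfaip3 and Nfkbia and the receptor Tlr2 fell, none rose, and 15 of 16 were below 0. Nfkbia had 746, 759, 1440 and 1134 CPM at day 7 and 1944, 1943 and 2226 CPM at day 3 (log2 -0.96, SE 0.20).

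Of 21 genes of glycolysis and hypoxia tested, 3 fell (14.3%, against 4% of all genes) and none rose. Of the 21, 19 were below 0, against 1626 of all 3404 genes tested, with a median of -0.47. Slc16a3, which exports lactate, had 161, 150, 131 and 144 CPM at day 7 and 369, 341 and 366 CPM at day 3 (log2 -1.20, SE 0.12, adjusted p = 0.00059, edgeR), with no overlap and a narrow spread in both groups. Pgam1 and Pgk1, enzymes of glycolysis, fell by 0.94 and 1.36, but only 2 of the 7 fits without 1 library called Pgk1. Ldha, lactate dehydrogenase, did not pass the test (log2 -0.50, adjusted p = 0.091).

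Monocyte identity genes changed in both directions. Of 27 classical monocyte genes tested, Ms4a4c, Gngt2 and Ifitm3 rose, and Vcan, Clec4e and Hp fell, with a median of 0.04. Ms4a4c, a tetraspan membrane protein gene, had 816, 1243, 774 and 717 CPM at day 7 and 382, 329 and 349 CPM at day 3 (log2 1.41, SE 0.18, adjusted p = 0.0026, edgeR). Thinned, 47.1% to 70.5% of cells of a day 7 library and 33.6% to 38.4% of those of a day 3 library had an Ms4a4c UMI. Of 8 patrolling monocyte genes tested 1 rose, Cx3cr1, the fractalkine receptor, with 70.6, 48.7, 23.8 and 90.7 CPM at day 7 and 16.0, 12.8 and 23.2 CPM at day 3 (log2 1.98, SE 0.34, adjusted p = 0.0070, edgeR). It rested on 56 UMIs at day 7, and 1 of 8 is 12.5%, against 7.14% of all genes tested. Clec4b1, a lectin receptor gene, rose by 2.16 on 51 UMIs. Among 17 macrophage maturation genes Apoe, a lipid carrier, rose (0.64), and Pf4, a chemokine, and Ctsl, a lysosomal protease, fell (-2.03 and -0.92), with a median of -0.06.

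Genes of the TGF beta pathway and of CD47 signalling were listed because the study turns on them. Of 9 TGF beta genes tested, Tgif1, a repressor of its signals, Nrros, which holds latent TGF beta, and the target Tgfbi fell by 1.09, 0.62 and 0.57, and the median was -0.43. Tgfb1 itself had 302, 279, 286 and 404 CPM at day 7 and 394, 385 and 456 CPM at day 3 (log2 -0.29, SE 0.15, adjusted p = 0.25, edgeR), with overlap. None of 11 CD47 and SIRP genes passed the test by edgeR, and 3 had an unadjusted p under 0.05, near the 25% of all genes. Sirpa, the CD47 receptor of myeloid cells, stood at 186 to 286 CPM at day 7 and 184 to 238 CPM at day 3. Among 18 protease and matrix genes F10, Vcan, Tgfbi and Emilin2 fell and none rose. Of 8 alternative activation genes 2 fell, Klf4 among them, and of 8 iron and heme genes Lcn2 and Hp fell. Of 16 migration genes Cx3cr1 rose and Emilin2 fell. The called shares of these lists were 25%, 25% and 12.5%, on 2 genes each, against 7.14% of all genes tested. Of 16 dissociation and stress genes Ier2 rose by 0.55 and the median was 0.31. This 1 call is 6.25% of the list, against 7.14% of all genes tested, and is not read as a result about the list. None of 6 cell cycle genes and none of 13 complement and phagocytic receptor genes passed the test by edgeR, with 0 and 3 at an unadjusted p under 0.05, against 25% of all genes.

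**Figure D4:**
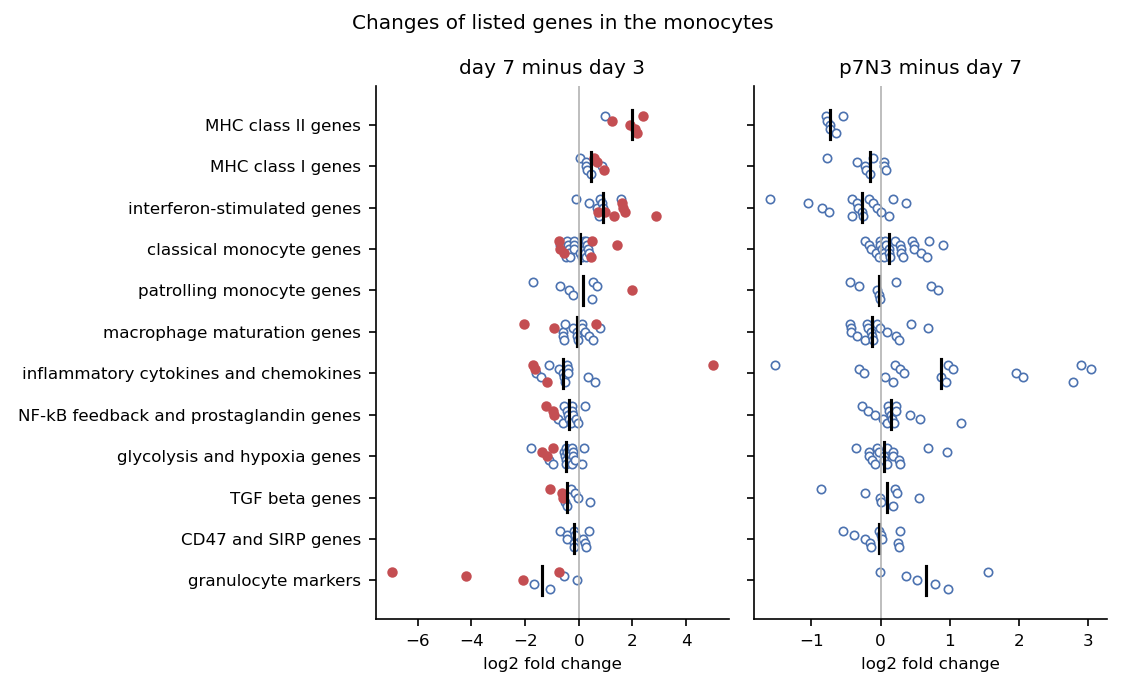
Log2 fold change of each tested gene of 12 lists in the monocytes, day 7 over day 3 (left) and p7N3 over day 7 (right); filled red points have an adjusted p under 0.05 by edgeR, open points do not, and black bars are list medians. For day 7 over day 3 the MHC class II median is 2.00 and the granulocyte median -1.38, and the right panel holds no filled point.

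Some markers of other cell types differed between the days as well. Stromal markers, led by Col3a1, summed to 1476, 8546, 1762 and 1505 CPM at day 7 and to 1051, 1839 and 945 CPM at day 3. These sums overlapped between the days, and the second day 7 library was the highest. Of 6 tested, Lum rose (log2 2.97, adjusted p = 0.041), and all 6 were above 0. Postn, a stromal matrix gene, had 141, 487, 167 and 115 CPM at day 7 and 35.9, 71.7 and 39.4 CPM at day 3, and rose by 2.38 in the monocytes and changed by 2.65 in C1q macrophages. Pericyte and smooth muscle markers summed to 62.8, 425, 83.3 and 136 CPM at day 7 and to 39.1, 39.4 and 54.0 CPM at day 3, without overlap, and Acta2 rose by 1.89. Erythrocyte markers, led by Hbb-bs, reached 8667 and 12114 CPM in the third and the fourth day 7 library, stood at 290 and 418 CPM in the others and lay between these at day 3 (1916, 1248 and 2860 CPM). In the high libraries 1 cell each held 296 of 322 and 1253 of 1274 Hbb-bs UMIs. Their part in the called changes was not tested. With cells above 1% of such markers left out, a choice made after seeing the data, 295 genes were called, of which 215 were among the 243.

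Some changes differed between the monocytes and the C1q macrophages of the same libraries. An interaction of cell group and day was tested by edgeR with the library as a block. Of 11443 genes, 111 (0.97%) differed, 48 (0.419%) toward the monocytes and 63 (0.551%) away from them, and these include 6 genes of the rule, which are not read. In the monocytes alone only 3404 genes were abundant enough to be tested. The 111 therefore include genes too low to be tested there, as given below for Gpnmb, Rgs5 and Tagln. The split of 48 and 63 moved with the setting, to 63 and 52 with size factors of the RLE type, 37 and 204 with the highest doublet scores removed, and 22 and 111 without the second day 7 library.

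Trem2, a lipid receptor of tissue macrophages, had 98.4 CPM ± 22.9 (SD, n = 4) at day 7 and 164 CPM ± 17.5 (SD, n = 3) at day 3 in the monocytes. In C1q macrophages the means were 772 and 464 CPM. The difference of the changes was -1.53 (SE 0.18, adjusted p = 2.44e-05, edgeR), and the fall in the monocytes alone missed the threshold (adjusted p = 0.062). Pf4 went from a mean of 547 to 146 CPM in monocytes and from 4322 to 3446 CPM in macrophages (difference -1.89, SE 0.25). Gpnmb, a glycoprotein of lipid-laden macrophages, went from 74.7 to 346 CPM in macrophages (difference -2.04). In monocytes it had 0, 31.3, 0 and 28.9 CPM at day 7 and 12.5, 13.8 and 16.2 CPM at day 3, too low to be tested there, so the difference describes the macrophages' change. Lrg1 and Bnip3, a mitochondrial gene of the hypoxia response, also differed by -1.94 and -1.55. Apoe and Ctsl, which changed in the monocytes, differed by -0.77 and -1.23.

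In the other direction, Isg15 and Ms4a4c differed by 1.07 and 1.16, both with adjusted p = 0.0012 or less by edgeR, and their changes in macrophages were 0.08 and 0.06. Cd177, a surface glycoprotein gene best known from neutrophils, had 51.7 and 49.8 CPM in monocytes at day 7 and day 3. In macrophages it had 0.336 and 2.99 CPM (difference 2.88). Its log2 change in monocytes was -0.06 (SE 0.24), so the difference describes the macrophages' fall, at a low level. Ccl5 and Cxcl10 differed by 2.84 and 2.64, on the few cells described above. Without the second day 7 library the call for Cxcl10 was lost, as was that for Tagln (2.75), a smooth muscle gene. Rgs5, a pericyte gene that like Tagln was too low to be tested in the monocytes alone, differed by 2.9, but 39 of its 43 UMIs in the second day 7 library lay in 1 cell. The class II genes did not differ, with H2-Ab1 at 0.45 (adjusted p = 0.27) and a change of 1.42 in macrophages. A p above the threshold does not show that the changes were alike.

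**Figure D5:**
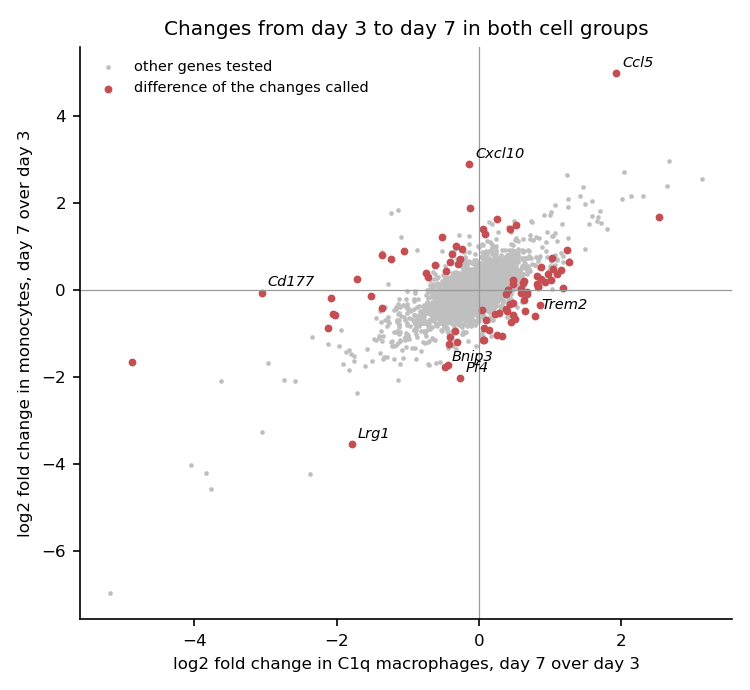
Log2 fold change from day 3 to day 7 in C1q macrophages (horizontal) and in monocytes (vertical), 1 point per gene tested in both; red points are genes whose changes differed by the interaction test at an adjusted p under 0.05. Ccl5 lies at 4.99 in monocytes and 1.93 in macrophages, and Lrg1 at -3.54 and -1.79.

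No gene passed the test between p7N3 and day 7. Of 3041 genes tested, 0 (0%) were called by edgeR and 0 by DESeq2, with 185 (6.08%) and 98 at an unadjusted p under 0.05. The day 7 libraries were the same as those compared with day 3 above, so the comparisons are not independent.

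Among the inflammatory cytokine and chemokine genes, 14 of 17 were above 0, 7 at an unadjusted p under 0.05, and the median was 0.87, against -0.01 for all genes. Ccl4, a chemokine for monocytes and T cells, had 1542, 1109, 415 and 1042 CPM with p7N3 and 47.1, 334, 333 and 350.5 CPM at day 7, with no overlap (log2 1.95, SE 0.48, adjusted p = 0.57, edgeR). It was found in 109 of 325 and 48 of 189 cells. Without the 3 richest cells of each library, the levels were 388, 308, 186 and 389 CPM with p7N3 and 21.3, 134, 66.8 and 96.0 CPM at day 7. Ccl3 (log2 2.06) and Cxcl1 (log2 2.78) had adjusted p = 0.57 as well, and overlapped. For Cxcl1 the 3 richest cells held 96.3% and 92.1% of the UMIs in the first and second p7N3 libraries. Without these cells the p7N3 levels were 40.2, 54.2, 27.5 and 124 CPM, and those at day 7 8.73 to 26.8 CPM. Saa3 was as uneven, with 96.8% of its UMIs in 3 cells of the first library.

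Mt1, a metal-binding protein gene that responds to stress, had 625, 918, 652 and 504 CPM with p7N3 and 459, 285, 190.5 and 280.4 CPM at day 7 (log2 1.09, SE 0.23, adjusted p = 0.57, edgeR), with no overlap. It was spread over the cells, with 40.4% to 52.5% of thinned cells per p7N3 library and 18.5% to 36.0% per day 7 library. Lrg1 (1.57), Hp (0.70), Cd14 (0.58) and Ap1s2 (0.69) also lay above day 7 without overlap, and Sirpa (-0.54) lay below. All had an adjusted p of 0.57 or more by edgeR. How many of all genes tested lay apart in this way was not counted. Lack of overlap is therefore not read as an effect of p7N3, here or for Ccl4. Tgfb1 had 464, 309, 348 and 368 CPM against 302, 279, 286 and 404 CPM at day 7 (log2 0.20, SE 0.17, adjusted p = 0.93, edgeR).

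The 6 class II genes were all below 0 with p7N3, with a median of -0.73, and 5 had an unadjusted p under 0.05. H2-Ab1 had 3417, 2721, 2479 and 3222 CPM with p7N3, inside the range of 1765 to 7011 CPM at day 7 (log2 -0.73, SE 0.30, adjusted p = 0.76, edgeR). The fourth day 7 library, the lowest, was of the later deposit. Without it, 4 genes were called lower with p7N3, H2-Eb1 (-1.09), H2-Aa (-1.05), H2-Ab1 (-1.0) and Cd74 (-0.99), with adjusted p from 0.022 to 0.042 by edgeR. Without both libraries numbered 4, those of the later deposit, 0 genes were called, and H2-Ab1 had a log2 change of -1.03 (adjusted p = 0.063, edgeR). The share of cells with 10 or more class II UMIs was 40.4%, 33.3%, 30.3% and 35% with p7N3. Interferon-stimulated genes had a median of -0.28 over 17 tested, and the 11 CD47 and SIRP genes a median of -0.02.

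Of 10416 genes, 4 (0.0384%, 3 higher or 0.0288% and 1 lower or 0.0096%) had a change with p7N3 that differed from that in C1q macrophages, at an adjusted p under 0.05 by edgeR and 0 by DESeq2. At an unadjusted p under 0.05 there were 487 (4.68%) and 222. Ccl4 differed by 1.68 (SE 0.30, adjusted p = 0.032), with means of 1027 and 266 CPM in monocytes and 356 and 259 CPM in macrophages with and without peptide. Mt1 differed by 1.01 (macrophage means 1123 and 984 CPM) and Ap1s2, a subunit of a vesicle coat adaptor, by 1.2 (monocyte means 159 and 94.4, macrophage means 64.7 and 86.0 CPM). Mmp12, macrophage elastase, differed by -4.12, but 64 of the 72 UMIs in the fourth day 7 library were in 1 cell. It was too low to be tested in the monocytes alone, where 3041 genes were. The called number ranged from 0 to 12 when single libraries were left out. It was 0 without the third day 7 library.

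At the ends of the course the monocytes were few. The 15 cells of day 0, of which 12 came from 1 library, had 2966 CPM of Cd74 (95% counting interval 2662 to 3296), and the 27 cells of day 21 had 12106 CPM (11611 to 12617). The day 21 libraries, of 3 to 8 cells each, differed widely, with class II sums of 24138, 17565, 47256 and 8298 CPM. Il1b stood at 1243 CPM (1049 to 1463) at day 0 and 1965 CPM (1768 to 2177) at day 21. Endothelial markers summed to 4485 and 6944 CPM in the first and second day 0 libraries and to 8776 CPM in the first day 21 library, and granulocyte markers to 11172 CPM in the fourth day 21 library, in which S100a8 is also counted. These intervals cover counting error only, and no test between days was made on these cells.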

How the data were processed

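Cells were isolated from the injury site by collagenase and dispase, and libraries were made with the 10x Genomics 3' v2 kit and sequenced on an Illumina HiSeq. The deposited matrices hold UMI counts per gene and barcode, which the authors made with Cell Ranger. The methods name the mouse genome mm10, as do the labels of 4 libraries, whereas the labels of 15 name GRCh38 beside mouse gene identifiers. The matrices hold 27998 genes, and the kept cells held 3019467 to 39870492 UMIs per library. Deposited counts were used unchanged.

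Monocytes and C1q macrophages were chosen by the UMI rule given above. The members and the gene lists were chosen with earlier results of these data known. No doublets were removed in the reported values. UMIs were summed per library and cell group, for libraries with at least 10 cells, filtered by filterByExpr, scaled by TMM and tested with glmQLFit and glmQLFTest of edgeR 4.0.16 (R 4.3.3), with Benjamini-Hochberg adjustment at 0.05. The difference between cell groups was an interaction with the library as a block. Shares were compared by exact 2-sided permutation tests (scipy 1.17.1). Thinning drew 1500 UMIs per cell. The tests were checked on simulated data.

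Genes were named by rule. For each comparison these were the 8 genes per direction with the largest changes among those called, without overlap and with at least 50 CPM in the higher group. For the difference between cell groups they were 5 per direction. The 4 most abundant members of each list and the monocyte genes the study names were added. Other genes in the text were chosen after their values were seen. The list of genes the study names was chosen by the study on these samples. Of its 14 tested genes 1 rose (Apoe) and 2 fell, Tnf among them. Some genes that meet the naming rule are not reported here.

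The alternatives tried for normalization and testing were RLE size factors, DESeq2 1.42.0, 1 fit of all groups and a replicate block. Those for genes and libraries were the fit without any filter, a minimum of 10 UMIs per library, a minimum of 20 cells, the omission of each library, and the omission of all libraries numbered 4. Those for cells were a mitochondrial limit of 10%, removal of the cells in the highest 3.9% of Scrublet scores (scanpy 1.11.5), a Ly6c2 minimum of 3 and the rule on thinned cells.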

Additional observations from a re-analysis of the deposited data

Results flagged for a closer look

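Of 40 groups of library values examined, 6 held a library far from the others of its group by Dixon's criterion, which chance gives in about 1 of 20 groups. In the monocytes at day 7 these were Cxcl10 at 216 CPM in the second library, Retnlg at 4.12 CPM, a single UMI where the other libraries had 0, in the fourth and Ccl4 at 47.1 CPM in the first. The stromal marker sum was 8546 CPM in the second day 7 library. With p7N3, the granulocyte marker sum was 4020.4 CPM in the fourth library and the erythrocyte marker sum was 7539 CPM in the third.

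The change from day 3 to day 7 differed between monocytes and C1q macrophages by the interaction test of edgeR for Rgs5 (2.9 on the log2 scale), Cd177 (2.88), Ccl5 (2.84), Tagln (2.75) and Cxcl10 (2.64), which were relatively higher in the monocytes. Gpnmb (-2.04), Lrg1 (-1.94), Pf4 (-1.89), Bnip3 (-1.55) and Trem2 (-1.53) were relatively lower. Of Tagln's 24 UMIs in the second day 7 library, 16 were in 1 cell. With p7N3 the change differed for Ccl4 (1.68), Ap1s2 (1.2), Mt1 (1.01) and Mmp12 (-4.12).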

How the results depend on the processing

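The 243 genes called between day 7 and day 3 became 718 with no filter on low counts, 156 with at least 10 UMIs in every library, 376 by DESeq2, 161 with at least 3 Ly6c2 UMIs, 65 with the rule on thinned cells, and 89 (without day 3 library 1) to 322 (without day 7 library 4) with 1 library left out. It was also 122, 90 and 138 without day 3 library 2, day 3 library 3 and day 7 library 2. The 111 genes whose change differed between cell groups became 68 with at least 10 UMIs in every library, 241 with the highest Scrublet scores removed, 263 in cells with few markers of other types, 267 in cells with no dendritic cell marker, and 66 to 329 with 1 library left out. The last 2 selections of cells were chosen after seeing the data. For p7N3 against day 7 the 0 calls became 84 with no filter, and 0 to 4 with 1 library left out. The 4 genes whose change with p7N3 differed became 2 with RLE size factors, 0 with at least 10 UMIs in every library, 0 by DESeq2, 12 in replicates 1 to 3, 19 in cells with few other markers, 2 in cells with no dendritic cell marker, 11 with the highest Scrublet scores removed, 26 with the rule on thinned cells, and 0 to 12 with 1 library left out. Of the 4, only 2 were among the 12 in replicates 1 to 3 and 1 among the 26 on thinned cells. Without day 7 library 4, 1 of the 4 was among the 12 called, of which 2 were higher and 10 lower. The cause of these shifts was not tested. The settings also changed the number of genes tested between day 7 and day 3. It was 3404 in the main fit, 15088 with no filter and 6822 without day 7 library 4.

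Of the 111 genes whose change differed, 104 of the 109 still tested kept their sign in cells with few other markers, 99 of 106 with the rule on thinned cells, and 109 of 110 both in cells with no dendritic cell marker and without the second day 7 library. Among the genes named, the difference between cell groups reversed for Rgs5 (-0.00798 in cells with few other markers and -0.26 with the rule on thinned cells), Gpnmb (0.59 with that rule) and, for p7N3, Mmp12 (0.29 with that rule). No comparison of shares changed direction under the alternatives run. The adjusted p of these comparisons could not fall under the threshold in any setting, because the few libraries keep the smallest possible p too high. It therefore cannot show whether the shares depend on the processing. The deviations of same-numbered libraries correlated by -0.030, 0.154 and 0.038 for day 7 with day 3 and by 0.136, 0.104, -0.011 and -0.035 for p7N3 with day 7. Not every pair was above 0.1, so the numbers were not taken as pairs. With the replicate block 265 genes were called between day 7 and day 3, of which 163 were among the 243, and 0 between p7N3 and day 7. Among the groups tested, depth limits low genes most at day 7, where 1 UMI in the third library equals 11.9 CPM.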
